A study of Drosophila melanogaster with 18 samples.

Results

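The chemoreceptor genes of Drosophila melanogaster were read here as a set of sensory genes in whole-embryo DNA in which a methylase had been expressed in the mesoderm. Members were all genes of the release 6 annotation whose symbol is Or, Gr or Ir followed by a digit, which gave 186 of 18358 genes (transposable elements left out), made up of 60 Or, 60 Gr and 66 Ir genes, 179 of them protein coding and 7 pseudogenes. The assay was targeted DamID, in which the bacterial methylase Dam is fused to a subunit of RNA polymerase II, so that GATC sequences near the polymerase become methylated, are amplified and are counted. Each gene was read over its span and 500 bp to either side, as the summed count of its GATC sites, in CPM, which is the count scaled to a library total of 1e+06, or in CPM per site. The 186 windows held 2271 distinct sites, 0.567% of the 400733 sites counted, with a median of 9.5 sites per window and a range from 1 to 367.

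The 18 libraries came from embryos at stages 10 to 13, collected in bulk, and formed 6 groups of 3 replicates. In all of them the Dam fusion was expressed through GAL4, either from bap-GAL4 (bap), active in the visceral mesoderm, or from twi2xPE-GAL4 (twi), active in the mesoderm at large. With each driver the fusion was expressed alone (Dam-PolII), with UAS-Alk.DN, a dominant negative form of the receptor tyrosine kinase Alk, or with UAS-Jeb, the Alk ligand Jelly belly. The labels do not say whether replicates were separate embryo collections, so p-values measure the spread between these libraries.

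Odorant receptors (Or) form ion channels in olfactory neurons together with the co-receptor Orco, whose symbol places it outside the set. Gustatory receptors (Gr) detect sugars, bitter compounds and carbon dioxide, and ionotropic receptors (Ir), relatives of glutamate receptors, detect acids, amines, humidity and temperature. Their best known expression is in differentiated sensory neurons of the larva and the adult. They are usually taken as silent in embryonic mesoderm, so that their counts were read as a measure of background methylation. Whether each member was silent in these embryos was not tested.

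Depth ran from 1624349 to 14095376 counts per library, so that 3 counts, used as a floor, corresponded to 0.213 to 1.85 CPM, a floor for counting error alone, since PCR copies of 1 molecule were counted separately. All 9 mesoderm markers (among them Mef2, Hand and bin) lay above the median level of all genes. The 3 libraries with the bap Dam-PolII label had 367 to 470 CPM at the first exon of jeb, the gene driven by UAS-Jeb, within the range of Jeb replicates 2 and 3 (249 to 621 CPM), whereas both Jeb replicate 1 libraries held 4.93 to 5.57 CPM. Their labels therefore go against this gene, and groups are named below by label. The Jeb replicate 1 libraries also had 12.7 to 14.2% of their counts at sites bordering no fragment whose ends both carry a purine behind the GATC, against 53.6 to 59.9% in the other 16.

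The GATC sites of a few members are shown first, because what was counted depended on how close together they lie. The sequences were read from the RefSeq copy of the release 6 genome, on the plus strand, 5′ to 3′, and capitals mark each GATC. The upstream stretch of Gr93a (chr3R:21832353-21832502) ends before the annotated start and carries the strongest site of that gene. The Ir67b stretch (chr3L:10430650-10430780) is coding and holds a pair of sites. The Ir68a stretch (chr3L:11234080-11234379, coding and intron) and the first Ir76b stretch (chr3L:20110678-20110747, coding) hold crowded sites, and the second Ir76b stretch (chr3L:20111185-20111214, coding) holds a site with a long fragment on one side.
Gr93a upstream: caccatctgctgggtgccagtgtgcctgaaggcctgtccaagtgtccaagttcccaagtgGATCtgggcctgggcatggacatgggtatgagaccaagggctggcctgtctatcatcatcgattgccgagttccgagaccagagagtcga
Ir67b coding: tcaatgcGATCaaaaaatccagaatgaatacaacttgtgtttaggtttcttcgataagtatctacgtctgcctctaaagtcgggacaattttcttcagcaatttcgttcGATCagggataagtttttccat
Ir68a crowded: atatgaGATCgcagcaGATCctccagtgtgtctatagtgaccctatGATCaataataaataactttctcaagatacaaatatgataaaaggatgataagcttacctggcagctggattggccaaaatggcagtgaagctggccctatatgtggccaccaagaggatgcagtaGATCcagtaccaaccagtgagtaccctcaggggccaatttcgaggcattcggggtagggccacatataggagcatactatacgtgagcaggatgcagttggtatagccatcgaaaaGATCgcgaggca
Ir76b crowded: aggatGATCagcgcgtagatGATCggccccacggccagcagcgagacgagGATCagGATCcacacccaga
Ir76b spaced: ggtgcttgccgccGATCcaatcgagcatct

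The single site in the Gr93a stretch lies 90 bp before the start, between fragments of 1283 and 606 bp. It held 21.8 ± 2.79 CPM (SD, n = 3) under the bap Dam-PolII label and 39.9 ± 9.51 CPM with bap Alk.DN. The 5 sites of the Ir68a stretch are 10, 30, 126 and 116 bp apart. Of these, the first borders a fragment of 636 bp on its other side and held 1.65 ± 1.43 CPM for bap Dam-PolII and 6.81 ± 4.90 CPM for bap Alk.DN, whereas the others were at 0 CPM in both Dam-PolII and both Alk.DN groups. Along Ir76b, the outermost of the 4 crowded sites, next to a fragment of 471 bp, had 3.05 ± 3.33 CPM for bap Alk.DN, and the 2 in the middle had 0 CPM. The spaced site, next to a fragment of 1125 bp, had 6.03 ± 3.54 CPM there. Sites between short fragments were thus at or near 0 where spaced sites of the same gene were counted.

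Across all members, sites whose longest adjoining fragment was under 150 bp (533 sites) held 0.0145 to 0.0509 CPM in the 6 groups. Sites next to a fragment of 150 to under 300 bp held 0.166 CPM in bap Dam-PolII and 0.561 CPM in bap Alk.DN, those at 300 to under 600 bp 0.584 and 1.19 CPM, and those at 600 bp or more 0.445 and 1.69 CPM. Member sites lie closer together than sites in general, with a median spacing of 162 bp against 197 bp. Of the 2271 sites, 352 (15.5%) had no count in any library.

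**Figure D1:**
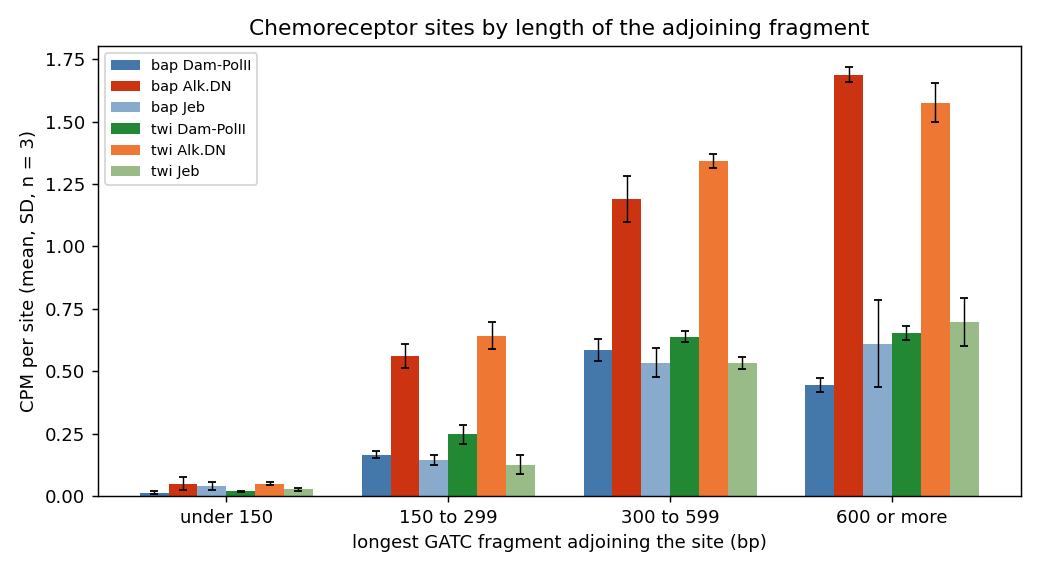
Mean CPM per site (bars, SD over 3 libraries as error bars) of the chemoreceptor sites in 4 classes of the longest adjoining GATC fragment, for the 6 groups. Sites with no fragment of 150 bp or more beside them stay at or below 0.0509 CPM in every group, and the Alk.DN bars are the highest in each class.

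The chemoreceptor windows lay far below other genes in every library. They held 0.316 ± 0.022 CPM per site (SD, n = 3) for bap Dam-PolII, 0.339 ± 0.046 in bap Jeb, 0.400 ± 0.014 in twi Dam-PolII and 0.351 ± 0.031 in twi Jeb. In Alk.DN the level was 0.878 ± 0.028 with bap and 0.918 ± 0.017 with twi. Both Alk.DN groups lay above all other libraries without overlap. Windows of all other genes held between 2.85 and 3.09 CPM per site in the 6 groups, so the member level was 10.2% of theirs in bap Dam-PolII and 13.2% in twi Dam-PolII, and 30.3% and 32.2% in the Alk.DN groups. Ribosomal protein genes, active in every cell, were 20.8-fold above the members in bap Dam-PolII and 33.7-fold in twi Dam-PolII, against 5.39-fold and 7.62-fold in Alk.DN.

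The members were also below the stretches between genes. Sites of the chromosome arms outside every gene window held 1.07 CPM in bap Dam-PolII and 1.24 CPM in twi Dam-PolII, and the member level was 29.6% and 32.2% of these values. From Dam-PolII to Alk.DN the level of sites between genes differed 1.59-fold with bap and 1.46-fold with twi, and that of the members 2.78-fold and 2.30-fold. All gene windows together were at 0.939-fold with each driver. Windows of Obp genes, sensory genes that are not receptors, held 3.06 CPM per site in bap Dam-PolII and 3.86 in twi Dam-PolII. In Alk.DN they were at 0.948-fold and 0.903-fold. Windows of ppk genes, other sensory channel genes, held 1.93 and 1.67 CPM per site, with 1.11-fold and 1.13-fold in Alk.DN. The low level and the size of the Alk.DN difference were thus not shared by these sensory genes. For the median member window, taken in each library, the Alk.DN fold was 7.30 with bap and 4.56 with twi. As a median of group means, the member window held 0.608 CPM per site in bap Alk.DN against 0.094 in bap Dam-PolII, and 0.689 against 0.188 with twi. The median window of all genes, also of group means, was higher in Alk.DN too. It held 1.34 against 0.700 CPM per site with bap and 1.55 against 0.932 with twi. Bulk DNA cannot tell apart methylation in a few cells from a lower level in many.

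**Figure D2:**
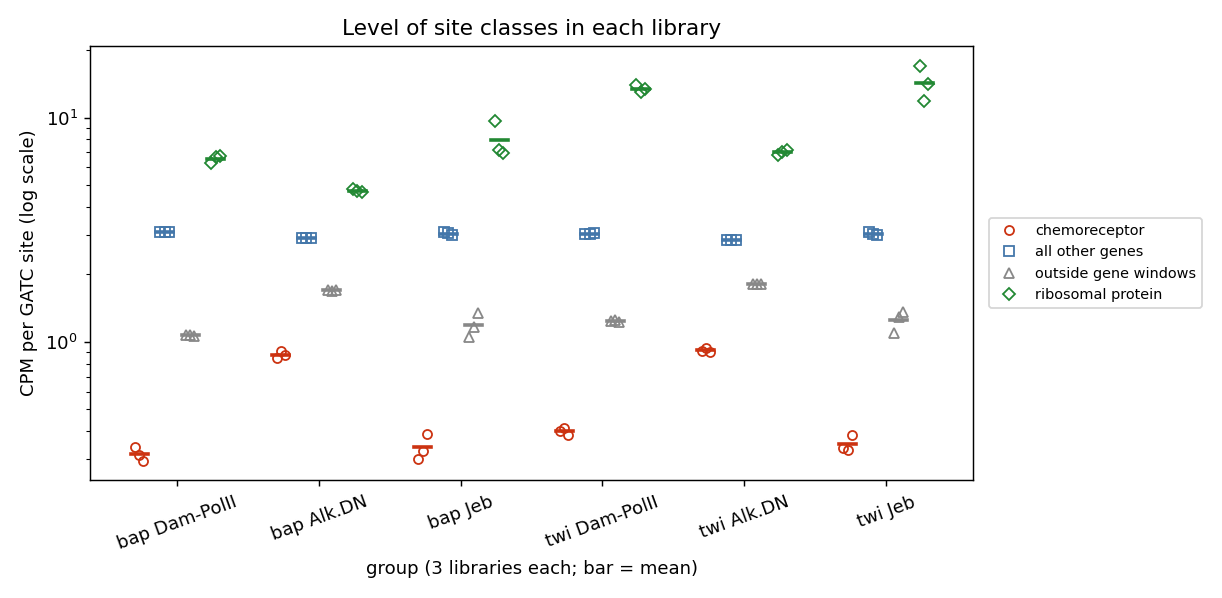
CPM per GATC site (log axis) in each of the 18 libraries (symbols; bars are group means of 3) for chemoreceptor windows, windows of all other genes, sites outside gene windows and ribosomal protein genes. The chemoreceptor points are the lowest in every group, at means of 0.316 and 0.878 in Dam-PolII and Alk.DN with bap and 0.400 and 0.918 with twi.

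The counts were also spread over more sites in Alk.DN, among the members and over all sites. The number of member sites that together held 50% of the member counts was 15.7 ± 2.1 for bap Dam-PolII against 89.3 ± 10.3 for bap Alk.DN. With twi it was 49.3 ± 6.0 for Dam-PolII against 128 ± 4.4 for Alk.DN. Over all sites the number was 4023 ± 189 against 7947 ± 142 with bap, and 4152 ± 57 against 10795 ± 389 with twi. These numbers were not thinned to a common depth. After every library was thinned to the total of the shallowest, 12.9 ± 1.51% of member sites had at least 1 count in bap Dam-PolII, 28.7 ± 2.22% in bap Alk.DN, 17.0 ± 1.66% in twi Dam-PolII and 38.7 ± 0.56% in twi Alk.DN (25.2%, 36.9%, 27.6% and 64.0% before thinning). Over all sites the thinned shares were 30.1%, 37.8%, 31.6% and 47.8%.

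The 3 families were close to each other. The median window held 0.094 CPM per site for Or, 0.096 for Gr and 0.094 for Ir genes in bap Dam-PolII, and 0.463, 0.590 and 0.665 in bap Alk.DN. The 25 members on the X chromosome had a median level, averaged over the 6 groups, of 0.150 CPM per site against 0.340 for the 161 on autosomes. Their windows held a median of 13 sites against 9. The X was not compared with autosomes for other genes, so this difference is not shown to be particular to the members. Of all members, 20 lay above the median of all genes (1.12 CPM per site), 4 of them Or, 7 Gr and 9 Ir genes and none on the X chromosome, and 114 lay in the lowest 25%.

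The highest member was Gr93a, a gustatory receptor of bitter-sensing neurons, with 10.2 CPM per site averaged over the groups and 4 sites, none of them in another gene. Its window held 39.3, 41.5 and 29.9 CPM in replicates 1 to 3 of bap Dam-PolII, 63.3, 59.9 and 87.0 for bap Alk.DN, 42.1, 24.3 and 34.4 in twi Dam-PolII and 41.6, 50.0 and 40.9 in twi Alk.DN. The bap groups did not overlap and the twi groups did, and the fitted difference was not called with either driver (log2 0.40 ± 0.23 SE, adjusted p = 0.15 with bap, and -0.12 ± 0.21, adjusted p = 0.66 with twi, edgeR quasi-likelihood test). The level fell along the gene, from the site 90 bp before the start to 2.33 CPM at the site 1020 bp into it in bap Dam-PolII.

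Several of the other high members had their counts in a neighbour, a transposon or few sites. Or71a, an olfactory receptor gene at 5.44 CPM per site, lies inside Plp with all 9 of its sites. Ir21a, a receptor of cool-sensing neurons at 5.33, had 116 CPM of its 125 CPM in bap Dam-PolII at a site in the flank that belongs to l(2)gl. Ir60b, a receptor that limits sugar feeding, had 46.2 CPM at the site 60 bp into the gene and at most 0.47 CPM at each of its other 11 sites in that group. Ir93a, a co-receptor for cool and humidity sensing at 2.78, had 57.9 of its 71.0 CPM in bap Dam-PolII at 10 sites inside an annotated Doc transposon insertion in an intron. Ir68a, a receptor of humidity-sensing neurons at 3.02, had 8.22 CPM at the site 2765 bp from its start and 8.04 CPM at the flank site after the gene. Ir51b, at 2.71, lies inside row with all 9 of its sites, and Or47b, a pheromone-sensing receptor at 2.24, has no site in another gene.

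**Figure D3:**
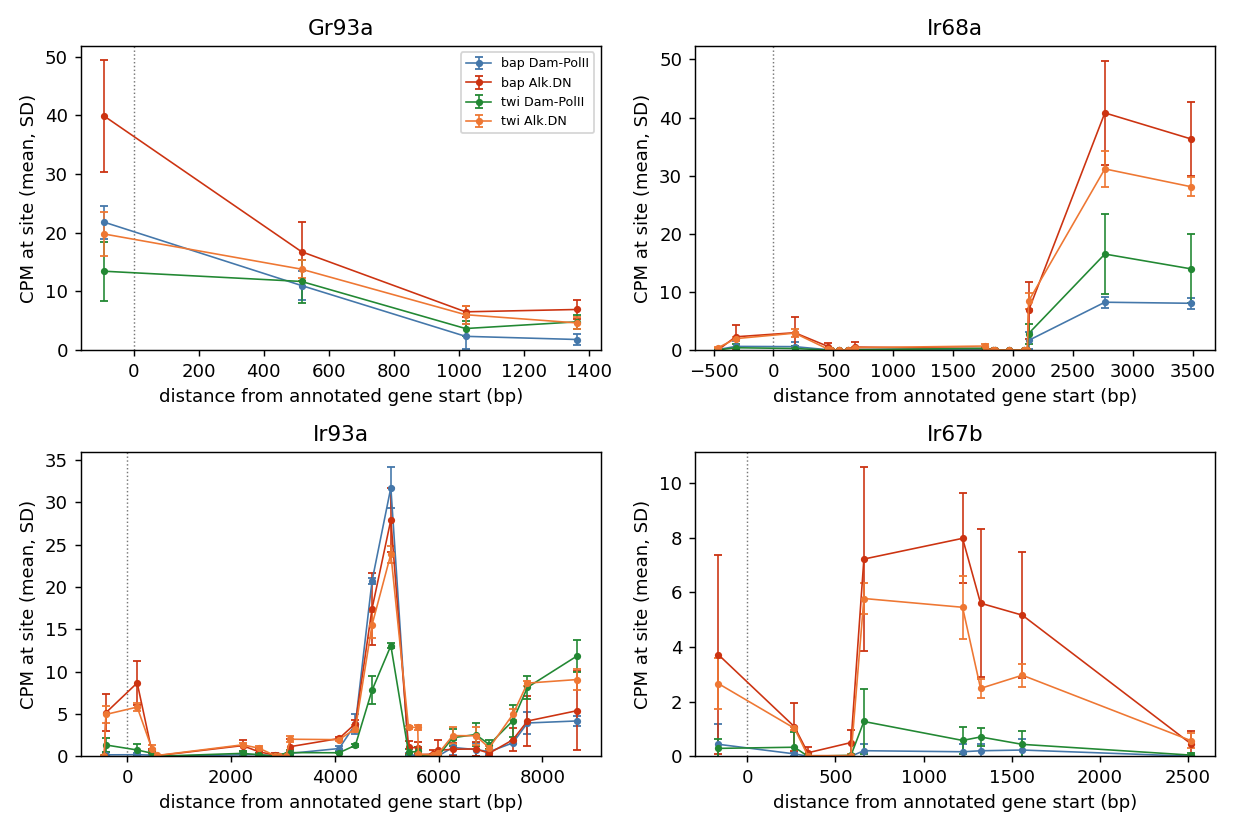
CPM at each GATC site (mean, SD over 3 libraries) against distance from the annotated start (dotted line) in bp, for 4 members and the Dam-PolII and Alk.DN groups. Gr93a peaks before its start at 21.8 and 39.9 CPM with bap, Ir68a beyond 2500 bp and Ir93a at the intron site of 31.7 and 27.9 CPM, whereas along Ir67b the Alk.DN groups stand above a flat Dam-PolII line.

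Transposon insertions of the annotation covered 318 member sites in 8 windows, of which 249 were among the 367 sites of Ir41a, 43 among the 88 of Ir40a and 10 among the 27 of Ir93a. They held 12.4% of the member counts for bap Dam-PolII against 7.16% for bap Alk.DN, and 6.64% and 7.78% with twi. Reads from repeated copies may not belong to these positions, so values of Ir41a, Ir40a and Ir93a are uncertain. Without these sites the Alk.DN fold over all members was 2.94 with bap and 2.27 with twi.

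At the other end, among members with at least 5 sites, Ir20a, Ir11a, Ir7c and Ir75a were lowest. Ir20a held 0 CPM in all 3 twi Dam-PolII libraries over its 21 sites and 0.0368 ± 0.0183 CPM per site in twi Alk.DN. Ir75a, which responds to acetic acid, had 0 CPM for bap Dam-PolII and 0.0942 ± 0.0945 CPM per site in bap Alk.DN. Of the 186 members, 9 had no count in any bap Dam-PolII library, 6 in twi Dam-PolII, 1 in bap Alk.DN and 0 in twi Alk.DN. The median window held 6.0 to 7.5 counts in a bap Dam-PolII library and 26.0 to 31.5 in a bap Alk.DN library, so single windows were thinly covered.

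Among the Ir co-receptors, which pair with many tuning Ir subunits, Ir8a had 0.58 CPM per site for bap Dam-PolII and 0.90 for bap Alk.DN, most of it at a flank site in CG12121 (14.4 and 15.7 CPM). Ir76b held 0.12 and 0.94 CPM per site, and Ir25a 0.13 and 0.46. With bap, Ir76b was called higher in Alk.DN (log2 2.46 ± 0.42, adjusted p = 0.00022 by edgeR), and Ir25a (1.24 ± 0.46, adjusted p = 0.034) and Ir8a (0.12 ± 0.32, adjusted p = 0.78) were not. With twi none of the 3 was called by edgeR: Ir76b was at 1.18 ± 0.39 (adjusted p = 0.028), Ir8a at -0.32 ± 0.18 (adjusted p = 0.16) and Ir25a at -0.70 ± 0.22 (adjusted p = 0.026), with 17.5, 16.2 and 18.4 CPM in Dam-PolII against 15.4, 14.4 and 16.2 in Alk.DN. Orco, set beside them as the co-receptor of the Or genes, held 0.0726 ± 0.0388 CPM per site in bap Dam-PolII, 1.17 ± 0.405 in bap Alk.DN, 0.319 ± 0.199 in twi Dam-PolII and 1.20 ± 0.142 in twi Alk.DN.

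Of the carbon dioxide receptors, Gr21a had 0.28 CPM per site for bap Dam-PolII and 1.35 for bap Alk.DN, and Gr63a 0.25 and 0.97. The sugar receptor Gr64a, with 4 sites, held 0.32, 4.54, 0.93 and 4.07 CPM per site in bap Dam-PolII, bap Alk.DN, twi Dam-PolII and twi Alk.DN, and was called higher in Alk.DN with bap (log2 3.27 ± 0.62, adjusted p = 0.0005) and twi (1.62 ± 0.36, adjusted p = 0.0035), both by edgeR. The other sugar receptors lay lower: Gr64b and Gr64c share one window (0.06 and 0.75 CPM per site with bap), as do Gr64d and Gr64e (0.04 and 0.31), and Gr64f held 0.08 and 0.42, Gr43a, the fructose receptor, 0.08 and 0.80, Gr61a 0.35 and 0.70, and Gr5a, the trehalose receptor, 0.44 and 1.55, with 7 of the 9 Gr5a sites in an antisense RNA gene. The bitter receptors Gr33a and Gr66a held 0.04 and 0.27 CPM per site for bap Dam-PolII against 0.15 and 0.28 for bap Alk.DN. Gr28b, known from warmth and light sensing, held 0.10 and 0.53 in the same groups and was not called, and its neighbour Gr28a, with 0.11 and 0.03, had too few counts for the test. With twi, Gr28a held 0.07 CPM per site in Dam-PolII and 0.57 in Alk.DN, without overlap, and was not called (log2 2.41 ± 0.73, adjusted p = 0.019, edgeR; the interaction with driver, 4.69 ± 1.77, adjusted p = 0.075, was not called either), nor was Gr28b, at 0.21 and 0.98 (1.73, adjusted p = 0.022).

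Of the Or genes fixed by role, Or83a, which lies inside CG1172 with all 5 sites, held 0.41 CPM per site for bap Dam-PolII against 2.32 for bap Alk.DN. Or67d, the receptor of the pheromone cis-vaccenyl acetate, held 0.12 and 0.68, Or42b 0.27 and 0.90, Or22a 0.00 and 0.63, Or56a, the geosmin receptor, 0.01 and 0.23, and Or85b 0.01 and 0.00. With twi, Or67d was called higher in Alk.DN (log2 2.59 ± 0.64, adjusted p = 0.0066, edgeR).

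The comparison of Alk.DN with Dam-PolII asks where polymerase occupancy changed when Alk signalling was blocked. The libraries labelled bap Dam-PolII held 367 to 470 CPM at the first exon of jeb, against 3.41 to 4.95 CPM in twi Dam-PolII. With bap, an effect of Alk.DN therefore cannot be told apart from the labelling. With the bap driver every bap Alk.DN library exceeded every library labelled bap Dam-PolII for 117 of 186 members (62.9%), against 41.4% of all 18112 genes with a site, and the reverse held for 2 members (1.08%) against 15.0%. With the twi driver the counts were 141 of 186 (75.8%) against 53.4%, and 2 (1.08%) against 15.0%. Without a filter on counts, the fitted log2 difference was above 0 for 167 of 186 members with bap (89.8%, median 1.94) and for 166 with twi (89.2%, median 1.36), against 55.8% (median 0.22) and 57.8% (median 0.24) of all genes fitted.

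All 6 Alk.DN libraries also had fewer counts over the exons of Polr2A, the gene of the largest polymerase II subunit (31.8 to 52.6 CPM against 157 to 2088 in the other 12). Among the 12, bap Dam-PolII held 2043 to 2088 CPM and twi Dam-PolII 260 to 269 CPM. Whether these counts came from the gene itself or from the transgene of the Dam fusion was not tested. The sensory marker list (ato, amos, sens, acj6 and Orco, 2 of 5 above the all-gene median and none at 0) was, as a sum, higher in Alk.DN than in Dam-PolII of the same driver. The summed level of this list was 0.41 to 0.51 CPM per site for bap Dam-PolII against 1.44 to 1.61 for bap Alk.DN, and 0.83 to 1.20 and 2.02 to 2.20 with twi. In Jeb it was 0.45 to 0.68 with bap and 0.80 to 1.56 with twi, so twi Jeb reached into the range of bap Alk.DN. The neuron list (3 of 6 above the all-gene median, none at 0) ran from 1.47 to 1.69 in bap Dam-PolII and from 1.84 to 2.03 in bap Alk.DN, and from 2.19 to 2.26 and 2.16 to 2.25 with twi. Within the sensory list sens, a proneural factor of sense organs, was at 0.784 and 0.704 CPM per site in bap Dam-PolII and bap Alk.DN, and at 0.481 and 0.607 with twi. The mesoderm list went the other way, from 9.96 to 10.4 in bap Dam-PolII against 6.57 to 6.92 in bap Alk.DN, and from 8.93 to 9.32 against 5.06 to 5.62 with twi. The endoderm list (2 of 2 above the median) held 2.58 to 2.76 and 4.11 to 4.57 with bap but 21.2 to 21.8 and 10.1 to 10.3 with twi. The hemocyte list (1 of 3) held 0.32 to 0.51 and 0.98 to 1.16 with bap and 1.78 to 2.06 and 1.51 to 1.59 with twi, and the epidermis list 1.73 to 2.21 and 2.22 to 2.53 with bap and 2.03 to 2.08 and 2.15 to 2.26 with twi. The part of any of these in the result was not tested.

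Low genes in general had higher values in Alk.DN, and for other genes the sign turned with rising level. Over all genes split into 5 equal classes by level, the median log2 difference with bap was 1.53 for the other genes of the lowest class and 2.18 for its 95 members, and 0.95 and 1.97 in the next class, which held 53 members. In the class above it the values were 0.28 and 1.79 for 25 members, in the fourth class, with 10 members, -0.24 and 1.61, and in the highest class, which held 3 members, -0.77 and -1.45. With twi the classes from the lowest to the highest gave 1.36, 0.73, 0.28, -0.14 and -0.77 for other genes, and 1.60, 1.35, 0.84, 0.60 and -0.64 for members.

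**Figure D4:**
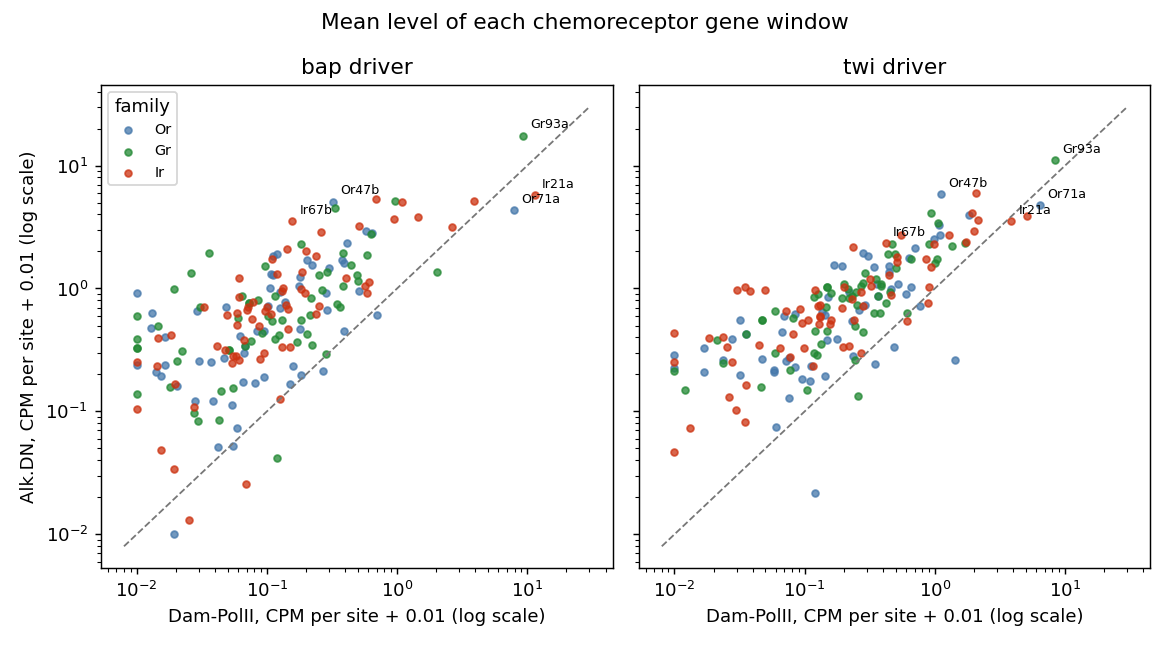
Mean CPM per site (n = 3, plus 0.01, both axes log) of each of the 186 windows in Dam-PolII (x) and Alk.DN (y) for the bap and twi drivers, coloured by family; the dashed line marks equal levels. Most windows lie above the line with both drivers, and with bap Ir21a and Or71a are below it.

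After the filter, 123 members were tested with bap, of which 52 were called higher and 2 lower at an adjusted p under 0.01 (edgeR quasi-likelihood test, Benjamini-Hochberg over all genes tested), beside 16.8% of all genes called higher and 21.2% lower. With twi 167 were tested, of which 36 were called higher and 4 lower, beside 12.1% and 20.3% of all genes. Without twi Alk.DN replicate 1, 2 or 3 the twi count of 40 was 19, 16 or 15. With total counts in place of TMM scaling 78 were called higher and 1 lower with bap and 73 and 1 with twi, and the share of calls over all genes that were higher went from 44.1% to 72.1% and from 37.4% to 71.1%. The 63 and 19 members not tested had too few counts, and a member that passed through its Alk.DN counts alone was bound to differ, so these counts describe the list. By family, 14 Or, 16 Gr and 22 Ir genes were called higher with bap and 10, 12 and 14 with twi. Not tested were 28 Or, 18 Gr and 17 Ir genes with bap and 10, 2 and 7 with twi, so these counts do not rank the families. Of 122 members tested with both drivers, 14 were called higher with both, which is 26.9% of the bap list and 38.9% of the twi list, and over all genes the shared calls were 43.6% and 54.0% of the lists. Of the 52, 34 had no site in another gene, and of the 36, 21, beside 114 of all 186 members.

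Or47b was called with the smallest adjusted p with both drivers. It held 3.93, 4.43 and 2.96 CPM in bap Dam-PolII, 52.9, 77.4 and 52.2 for bap Alk.DN, 11.7, 15.4 and 12.4 in twi Dam-PolII and 73.5, 74.2 and 63.6 in twi Alk.DN. Every Alk.DN library was above every Dam-PolII library of its driver, and the log2 difference was 3.48 ± 0.31 (adjusted p = 3.7e-07) with bap and 1.89 ± 0.18 (adjusted p = 6.5e-06) with twi, both by edgeR. Ir67b held 1.60, 1.36 and 0.986 CPM for bap Dam-PolII against 26.3, 38.1 and 31.2 for bap Alk.DN, again without overlap (log2 4.07 ± 0.41, adjusted p = 1.1e-06). Its 4 strongest sites, all coding, were each at 5.17 to 7.98 CPM in bap Alk.DN and at most 0.23 for bap Dam-PolII, among them both sites of the printed stretch. Ir40a, a receptor for dry air with 88 sites, held 7.14, 4.55 and 4.24 CPM for bap Dam-PolII against 57.8, 66.0 and 48.6 for bap Alk.DN (log2 2.92 ± 0.31, adjusted p = 1.8e-06), of which 2.46 and 16.9 CPM on average lay at transposon sites.

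With twi, Ir41a, an amine receptor and the longest window with 367 sites, held 31.0, 32.1 and 35.6 CPM in Dam-PolII and 108, 118 and 123 in Alk.DN (log2 1.30 ± 0.13, adjusted p = 9.9e-06, edgeR), of which 23.8 and 75.9 CPM on average lay at transposon sites. Or65a held 3.14, 4.36 and 3.78 CPM in the first and 26.9, 28.7 and 25.6 in the second (log2 2.31 ± 0.27, adjusted p = 3.4e-05). Neither pair of groups overlapped. Some members had no count in Dam-PolII and were picked for that, so a high fold followed from the choice. Against a floor of 3 counts over the group, the highest values with bap were 40.1-fold for Gr22c (69 counts in Alk.DN) and 41.3-fold for Or98b (71 counts). With twi the highest was 28.8-fold for Ir7d (122 counts). These values allow for counting error alone, since PCR copies of 1 molecule were counted separately.

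Of the members called lower, Ir21a and Or71a had most of their counts in other genes. Ir21a held 124, 128 and 122 CPM for bap Dam-PolII against 57.2, 50.3 and 80.7 for bap Alk.DN (log2 -1.52 ± 0.19, adjusted p = 1e-05), but its span alone gave 0.73 (adjusted p = 0.16). The site in l(2)gl held 116 CPM in the first and 42.4 CPM in the second, and the site 68 bp into Ir21a 1.79 and 4.70 CPM. Or71a, inside Plp, held 87.3, 67.8 and 57.5 CPM in the first and 46.7, 46.1 and 23.9 in the second (log2 -1.39 ± 0.26, adjusted p = 0.00044). With twi, Or22c, a larval odorant receptor with no site in another gene, held 5.12, 5.99 and 14.3 CPM in Dam-PolII against 1.34, 1.47 and 1.70 in Alk.DN (log2 -3.0 ± 0.53, adjusted p = 0.00087, edgeR). Its groups did not overlap. Ir60b (-0.91), Or71a (-0.96) and Ir21a (-0.63) were also called lower with twi, each with overlapping groups.

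**Figure D5:**
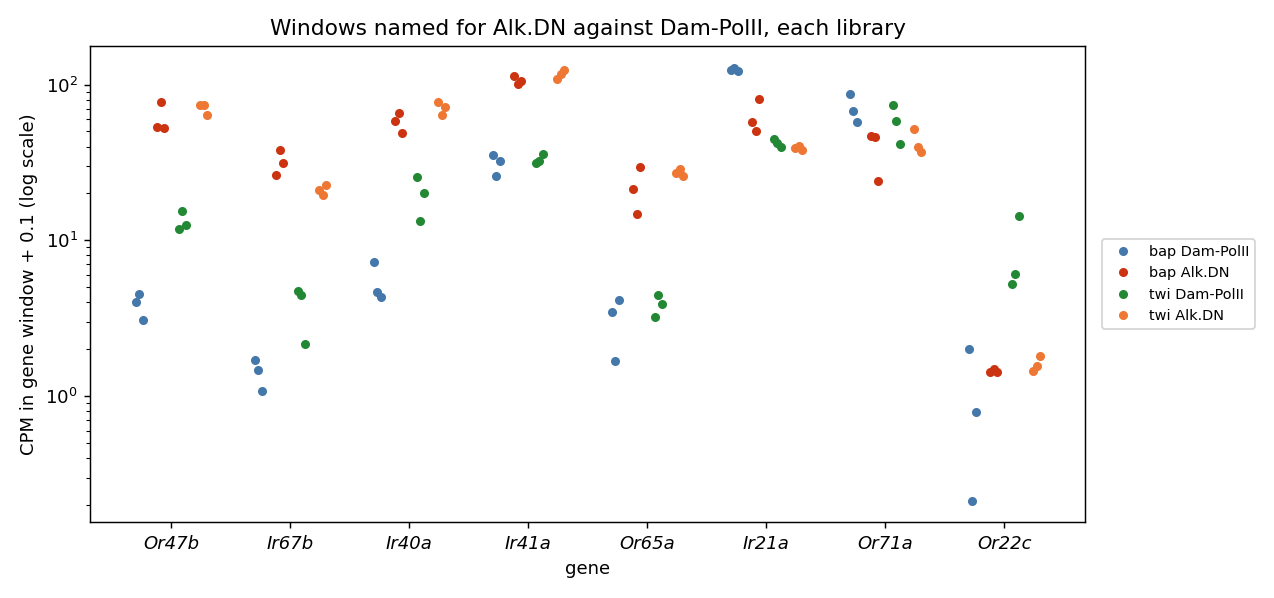
CPM in the window (plus 0.1, log axis) of 8 members in each library of the bap and twi Dam-PolII and Alk.DN groups (points, 3 per group). Or47b, Ir67b, Ir40a, Ir41a and Or65a are higher in both Alk.DN groups, Ir21a and Or71a are lower with bap, and Or22c is lower with twi.

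The Jeb groups carry the Alk ligand and shared their Dam-PolII libraries with the Alk.DN comparisons. Since the libraries labelled bap Dam-PolII held 367 to 470 CPM at the first exon of jeb and both Jeb replicate 1 libraries 4.93 to 5.57 CPM, the bap comparison is one between labels, and an effect of Jeb cannot be told apart from the labelling. No member was called with bap (0 of 67 tested) or twi (0 of 103), beside 0.0% of all genes in both directions, by edgeR. At an unadjusted p under 0.05 there were 11 members with bap (16.4%, beside 12.7% of all genes tested) and 4 with twi (3.88%, beside 7.65%). The Wald test of DESeq2 called 1 of 49 members with bap, beside 1.81% of all genes, and 0 of 103 with twi, beside 0.263%. The level over all members was 1.07-fold that of Dam-PolII with bap and 0.877-fold with twi, and 1.13-fold and 0.896-fold without the Jeb replicate 1 libraries. The smallest p belonged to Ir40a with bap, which held 18.3, 15.4 and 30.2 CPM in Jeb, above all 3 libraries labelled bap Dam-PolII, and was not called (log2 2.28 ± 0.50, adjusted p = 0.17). Without bap Jeb replicate 1, 1 member was called with bap, and without twi Jeb replicate 1, 0 with twi.

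Between the drivers, the twi Dam-PolII libraries were 1.27-fold above those labelled bap Dam-PolII over all member sites. Of 91 members tested, 6 were called higher with twi and 2 lower, beside 12.8% and 17.0% of all genes (with total counts in place of TMM scaling, 10 and 1). Ir25a held 17.5, 16.2 and 18.4 CPM for twi Dam-PolII against 3.79, 4.20 and 3.75 for bap Dam-PolII, with no overlap (log2 1.89 ± 0.36, adjusted p = 0.00036, edgeR), and its counts lay near the start, at 5.93 CPM at the site 124 bp into the gene, 4.87 CPM at 699 bp and 3.34 CPM at the flank site in tank. Ir40a was also higher (log2 1.63 ± 0.37, adjusted p = 0.0019), and Or59a had 3.30, 2.54 and 1.34 CPM against 0 CPM in all 3 bap libraries. Ir21a (log2 -1.82 ± 0.16, adjusted p = 4.4e-08) and Ir85a, inside Pif1B and Pif1A with all 16 sites (-2.16 ± 0.54, adjusted p = 0.0039), were lower. Over its span alone the Ir21a value was -0.36 (adjusted p = 0.53). Leaving out any bap Dam-PolII library, or twi Dam-PolII replicate 1, left 4 members called.

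Of 172 members tested between twi Alk.DN and bap Alk.DN, 0 were called by edgeR, beside 2.1% of all genes higher and 5.89% lower, 24 had an unadjusted p under 0.05 (beside 29.3% of all genes tested) and the DESeq2 Wald test called 8 (4.65%, beside 14.2%). The smallest adjusted p was that of Gr59a (log2 -0.75 ± 0.17, adjusted p = 0.010), followed by Gr93a (-0.83 ± 0.19, adjusted p = 0.011). Without bap Alk.DN replicate 2, 3 members were called, and without bap Alk.DN replicate 3, 1.

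A test of the interaction asked whether the Alk.DN difference itself differed between the drivers. Of 173 members, 1 was called with a larger value with twi and 8 with a smaller one, beside 5.88% and 4.99% of all genes (with total counts, 0 and 9). The smaller ones included Or47b (log2 -1.49 ± 0.34, adjusted p = 0.004, edgeR) and Ir25a (-1.83 ± 0.46, adjusted p = 0.0082). The count rested on single libraries: it was 0 without twi Alk.DN replicate 2 or replicate 3, 1 without replicate 1, 3 without bap Alk.DN replicate 2, 4 without bap Dam-PolII replicate 1 or 3, 5 without its replicate 2 and 5 without twi Dam-PolII replicate 1.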

How the data were processed

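Raw counts per GATC site, which the authors deposited as whole numbers for 18 libraries, were made from paired reads with Bowtie2 on the release 6 genome (CASAVA 1.4 is in the submitters' notes). The deposited peak tables hold the authors' own comparisons and were not used. Gene spans came from the Ensembl annotation of the same assembly. Counts were summed over each span and 500 bp either side, and CPM used whole library totals. Because windows overlap, a site can count for several genes. Each comparison was fitted in edgeR 4.0.16 (R 4.3.3) on the groups compared, with TMM scaling, filterByExpr at a min.count of 10, the two-sided quasi-likelihood test and Benjamini-Hochberg adjustment over all genes tested, called at 0.01. Fold changes are log2 with the standard error.

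Named genes were the 8 highest and 4 lowest members, up to 3 called higher and 3 called lower per comparison with groups that did not overlap, and receptors listed by role. Members and lists were chosen with earlier results of these data known. Alternatives included limma 3.58.1 and DESeq2 1.42.0. Sequences were read from the reference assembly of the same release, and plots were drawn with Python 3.11.15 and matplotlib 3.10.9.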

Additional observations from a re-analysis of the deposited data

Results flagged for a closer look

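The Alk.DN difference differed between the drivers for 9 of 173 members by the interaction test of edgeR, with adjusted p between 0.0033 and 0.0086. Of the members tested, 0.578% were called with a larger value with twi and 4.62% with a smaller one, beside 5.88% and 4.99% of all genes. The members were thus not called more often than genes in general. Values are given as twi minus bap on the log2 scale. Or47b (-1.49), Ir40a (-1.47), Ir56b (-2.18), Ir25a (-1.83) and Ir51a (-2.09) had smaller values with twi. Gr36b (-9.33), Gr22c (-7.40) and Or22a (-5.93) did too, but Gr36b and Gr22c had no count in any library labelled bap Dam-PolII and Or22a at most 0.114 CPM, so that the size of these values depends on the prior count of the fit. Ir21a (0.99) was the only one of the 9 with a larger value with twi, and over its span alone it was -0.0030, and most of its counts lie at the site in l(2)gl. For Or47b the Dam-PolII levels did not overlap between drivers (11.7 to 15.4 CPM with twi, 2.96 to 4.43 with bap), while the Alk.DN levels did (63.6 to 74.2 and 52.2 to 77.4 CPM). Because the libraries labelled bap Dam-PolII go against their label at jeb, the driver and this difference between control libraries cannot be told apart. In 12 fits that each left out 1 library, every one of the 9 calls was lost at least 2 times.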

How the results depend on the processing

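The number of members called in bap Alk.DN against bap Dam-PolII was 54, and 33 at a min.count of 50, 23 in a single fit to all 18 libraries and 86 at an adjusted p under 0.05. In twi Alk.DN it was 40, and 74 with total counts, 4 in the single fit and 76 at 0.05. For twi against bap Dam-PolII it was 8, and 13 by the DESeq2 Wald test (14.3%, beside 33.6% of all genes), 2 in the single fit and 22 at 0.05. For the interaction it was 9, and 14 by the Wald test (8.09%, beside 14.8%), 2 by limma-voom, 0 in the single fit and 18 at 0.05. For bap Jeb it was 0, and 1 by the Wald test (2.04%, beside 1.81%). For twi against bap Alk.DN it was 0, and 1 with DESeq2 size factors, 3 at a min.count of 50, 8 by the Wald test (4.65%, beside 14.2%), 5 by limma-voom and 9 at 0.05. Shares of all genes called are not given for the other settings, so those counts show only how the member list depends on the setting. Leaving out 1 library gave 41 to 45 (bap Alk.DN), 15 to 50 (twi Alk.DN, with 19, 16 and 15 without twi Alk.DN replicates 1, 2 and 3), 0 to 1 (bap Jeb), 0 to 0 (twi Jeb), 4 to 6 (Dam-PolII between drivers), 0 to 3 (Alk.DN between drivers) and 0 to 9 (interaction).

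In the pairs of groups compared, correlations of deviations from group means between libraries of the same replicate number lay between -0.023 and 0.021. These values show no pairing but cannot exclude shared handling. The bap Jeb and twi Jeb groups were not compared with each other in this way. Both of their replicate 1 libraries stood apart from the other 16, with 12.7 to 14.2% of counts at sites bordering no fragment with a purine at both ends. With the replicate number as a block the counts were 47, 28, 0, 0, 9, 1 and 6 for bap Alk.DN, twi Alk.DN, bap Jeb, twi Jeb, Dam-PolII between drivers, Alk.DN between drivers and the interaction.

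Member levels in CPM per site, in the order bap Dam-PolII, bap Alk.DN, bap Jeb, twi Dam-PolII, twi Alk.DN and twi Jeb, were 0.198, 0.737, 0.254, 0.306, 0.788 and 0.263 over spans only, 0.206, 0.790, 0.263, 0.310, 0.815 and 0.270 without sites in other genes, and 0.0813, 0.594, 0.0872, 0.146, 0.668 and 0.117 as the median over windows. Without Ir41a, an alternative added after seeing the data, they were 0.360, 0.991, 0.376, 0.460, 1.03 and 0.401, and without sites in transposable elements, likewise added, 0.322, 0.947, 0.334, 0.434, 0.984 and 0.372. The Alk.DN fold was 3.71, 3.83 and 7.30 with bap, and 2.57, 2.63 and 4.56 with twi, over spans, without sites in other genes and as the median over windows. Leaving out 1 library gave levels of 0.304 to 0.326, 0.863 to 0.891, 0.313 to 0.357, 0.393 to 0.407, 0.908 to 0.925 and 0.333 to 0.361, and folds of 2.69 to 2.88 and 2.25 to 2.33. With at least 3 counts the share of member sites was 13.8%, 26.7%, 7.24%, 18.1%, 47.2% and 15.3% in the same order. The median over windows was taken in each library and then averaged over the group.

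Ir21a reversed in bap Alk.DN over its span (0.73) and without sites in other genes (0.87), and in the interaction (-0.0030 and -0.044). The cause of the other changes was not tested. Total counts moved the median log2 difference of all genes tested from 0.09 to 0.62 with bap and from 0.18 to 0.70 with twi, and that of the members tested from 2.00 to 2.52 and from 1.30 to 1.82, and the share of calls that were higher over all genes from 44.1% to 72.1% and from 37.4% to 71.1%. Low depth limits single windows most, with a median of 2.00 counts per window in the thinnest library.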
